A study of Homo sapiens with 30 samples.

Results

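Lysosome and autophagy genes were followed through the response of Ewing sarcoma cells to BMS-986158, a small molecule that blocks the bromodomains of BET proteins (BETi below). A set of 40 genes of the 33538 in the count table was taken by symbol, with earlier results of these data known. They comprise 3 transcription factors of the MiT/TFE family, 5 lysosomal membrane or lipid carrier proteins, 9 glycosidases, lipid hydrolases and their activators, and 8 cathepsins and peptidases. The rest are 5 proteins of the lysosomal proton pump and 10 genes of autophagosome formation and cargo capture. Poly(A) RNA was sequenced from 3 lines whose labels give the EWS::FLI1 fusion: TC32, A673 and CHLA10. Cells received 5 nM BETi for 3 days (72 hours) in each line, and A673 and CHLA10 cells also for 20 days, which the labels call persister cells. Cells in the solvent DMSO carry the same day labels. The 10 groups of 3 libraries were thus BETi and DMSO in TC32 at 3 days, and BETi and DMSO in A673 and in CHLA10 at 20 and at 3 days. CHLA10 was grown in another medium (IMDM with insulin, transferrin and selenium supplement) than A673 and TC32 (RPMI1640), so line and medium cannot be told apart. The labels give no hours for the DMSO cells and do not say how long the 20-day DMSO cells were kept in DMSO.

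Lysosomes are acidic organelles in which hydrolases break down proteins, sugars and lipids, and autophagy is the route that wraps parts of the cytoplasm in a double membrane and delivers them there. The MiT/TFE factors TFEB, TFE3 and MITF bind E-box motifs in the promoters of many lysosome and autophagy genes, called the CLEAR network, and the kinase complex mTORC1 keeps these factors in the cytoplasm when nutrients are plentiful.

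Levels below are CPM, counts scaled to library size and composition by the TMM method. A log2 change is BETi over DMSO with its standard error from edgeR's quasi-likelihood fit over all 30 libraries. A gene is said to have risen, fallen or been called where its Benjamini-Hochberg adjusted p over all 16713 genes tested was below 0.05. The labels do not say that the 3 libraries of a group came from separate cultures, so the spread that enters a p-value may be technical. Library totals ran from 16083677 to 48949739 counts. The 4 libraries farthest from the other 2 of their own group were A673 20-day BETi replicate 3, A673 3-day DMSO replicate 3, CHLA10 20-day BETi replicate 3 and CHLA10 20-day DMSO replicate 3. The 8 Ewing sarcoma markers had at least 1 count in every library, with NKX2-2 between 0.0397 and 1.98 CPM in CHLA10 libraries. Their summed level was lower with BETi in each comparison, for example 2190.0 to 2321 CPM with BETi and 3343 to 3546 CPM with DMSO in A673 at 20 days. In TC32 it was 5387 to 5510.3 CPM with BETi and 7012 to 7246 CPM with DMSO, and the groups overlapped in CHLA10 at 20 days alone. The part of this movement in the results was not tested. Markers of macrophages, melanocytes and osteoclasts, cells rich in lysosomes or in MITF, were low. TYR and OCSTAMP had 0 counts in 30 libraries, TYROBP and DCSTAMP in 29 and CD163 in 27. Of the 18 markers, 14 stayed under 1 CPM in every library, while ACP5 reached 2.04, AIF1 2.62, PMEL 5.17 and CD68, itself a lysosomal protein, 20.7 CPM. Their part in the results was not tested. In bulk RNA, fewer cells of a kind and less RNA per cell cannot be told apart. Exons of ATG9A, CTSD, GLB1, HEXA and MCOLN1 overlap those of another counted gene on the same strand, so their counts are uncertain. Exons of ASAH1, ATG7, ATP6V1A, BECN1, CTSA, GABARAPL1, LIPA, MAP1LC3B, NPC1, NPC2, SQSTM1, TPP1, UVRAG and WIPI1 overlap those of a counted gene on the opposite strand, whose reads cannot be told apart if the counting ignored strand.

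More of these genes rose than fell in every comparison. CTSZ, a cathepsin, was the only one of the 40 that failed the low-count filter, with 0 to 0.707 CPM, so 39 were tested. With BETi, 24 of the 39 rose and 2 fell in A673 at 20 days, where 19.7% of all tested genes rose and 19.9% fell. That made 61.5% of the members higher and 5.13% lower. In CHLA10 at 20 days 15 rose and 5 fell, beside 16.5% and 17.2% of all genes. After 3 days, 12 rose and 5 fell in TC32 (all genes 22.3% and 22.8%). In A673 11 rose and 5 fell (15.3% and 18.4%), and 14 rose and 5 fell in CHLA10 (14.0% and 15.7%). The 12 risen members in TC32 were 30.8% of those tested, the member share nearest to its background.

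**Figure D1:**
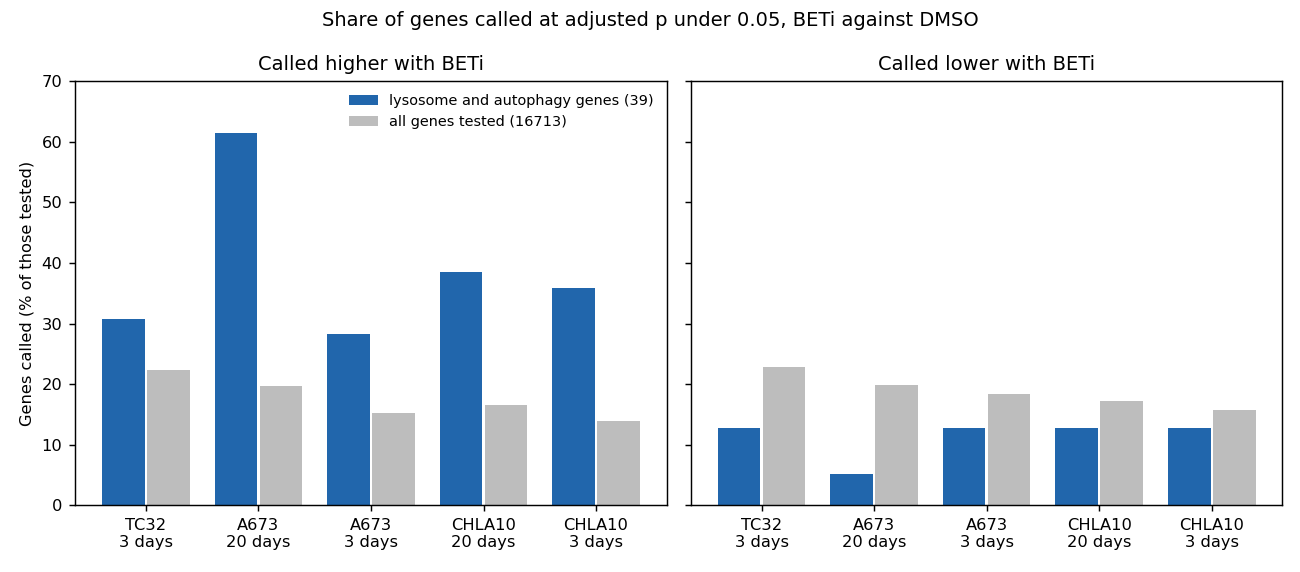
Bars give the percentage of genes called higher (left panel) or lower (right panel) with BETi at adjusted p under 0.05, for the 39 members (blue) and for all 16713 genes tested (grey), in each line and time. The member bar stands above the grey bar in all 5 comparisons on the left and below it in all 5 on the right, and it is highest in A673 at 20 days, at 61.5% against 19.7%.

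The median log2 change of the 39 members was 0.51 in A673 at 20 days, 0.23 in CHLA10 at 20 days, 0.12 in TC32 at 3 days, 0.18 in A673 at 3 days and 0.26 in CHLA10 at 3 days. That of all tested genes lay between -0.02 and 0 in these 5 comparisons. BETi and DMSO libraries did not overlap for 25 of 39 members in A673 (all genes 46.4%) and 27 in CHLA10 (43.2%) at 20 days. At 3 days they did not for 23 in TC32 (55.0%), 26 in A673 (46.6%) and 29 in CHLA10 (54.9%), and the TC32 share lay nearest to that of all genes. Summed over the 40 members, A673 at 20 days held 4538 ± 914 CPM with BETi and 2748 ± 111 CPM with DMSO (SD, n = 3 each). The BETi library with the lowest sum there, 3496.5 CPM, was replicate 3, the most distant library of the series, and it still lay above the highest DMSO sum of 2873 CPM. Without the 4 distant libraries all 115 calls held (the members' calls in these 5 comparisons and the largest differences between responses described below). The members called higher and lower became 25 and 2 in A673 and 16 and 6 in CHLA10 at 20 days. At 3 days they became 15 and 7 in TC32, which lost no library, 14 and 9 in A673 and 18 and 7 in CHLA10. The 4 libraries were picked by their distance from their groups in these same data, which favours keeping calls. That fit is therefore no support for the calls. The lower count in A673 at 3 days, 5, was 8 without DMSO replicate 3 and 3 without BETi replicate 3. In CHLA10 at 3 days it was 3 without BETi replicate 1, 2 without DMSO replicate 2 and 3 without DMSO replicate 3.

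**Figure D2:**
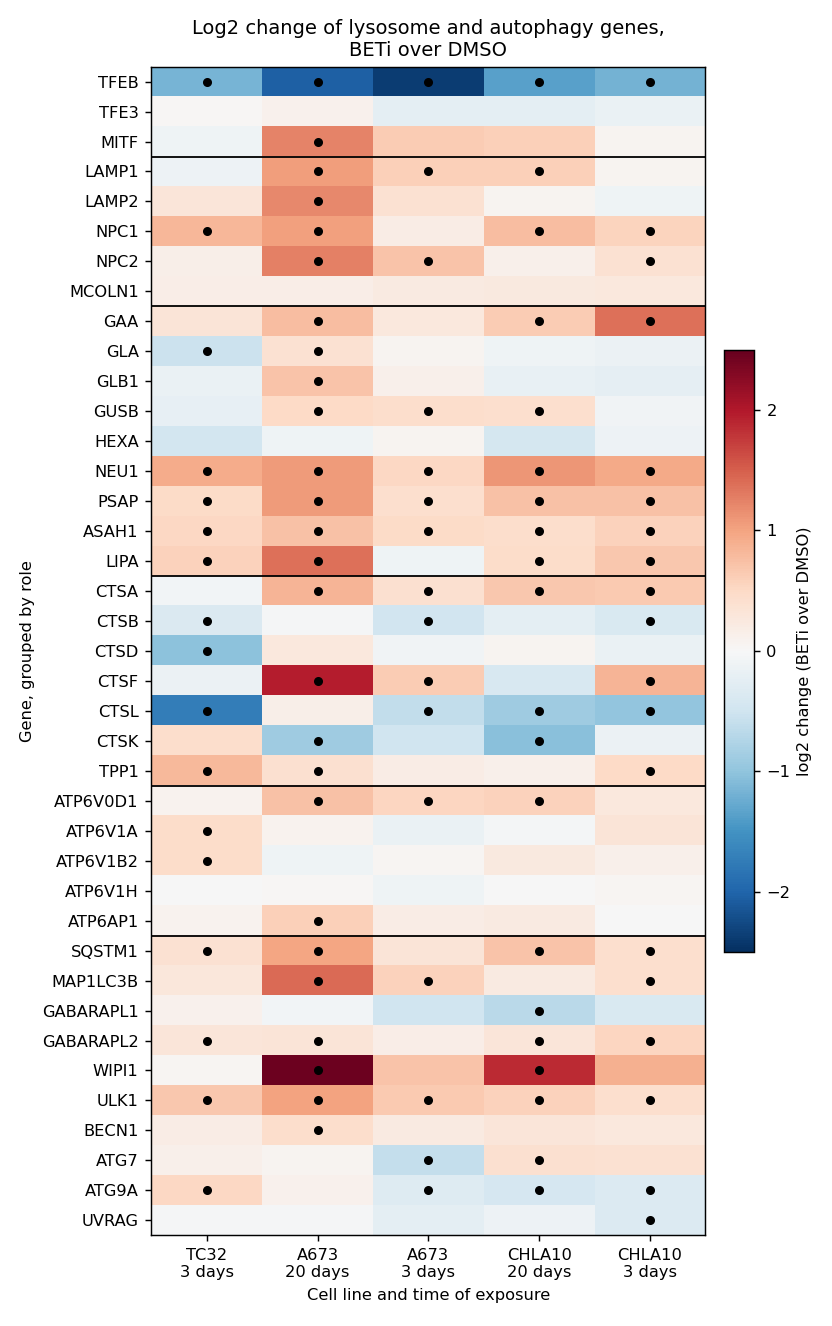
Each row is 1 of the 39 tested genes, grouped by role with black lines between groups, and each column a line and time; the colour gives the log2 change (BETi over DMSO), red higher and blue lower, and a black dot marks a call. TFEB is blue with a dot in all 5 columns, NEU1, PSAP, ASAH1 and ULK1 are red with a dot in all 5, and the A673 20-day column holds the most red dots.

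Only 5 members were called in the same direction in all 5 comparisons. NEU1, PSAP, ASAH1 and ULK1 rose in each, as did 2.81% of all tested genes, and TFEB fell in each, as did 3.10% of all tested genes. CTSB and CTSL fell in all 3 lines at 3 days, together with TFEB, as did 5.12% of all tested genes. Over the 5 comparisons 25 members were called higher at least once and never lower, 7 lower and never higher, 3 in both directions (ATG7, ATG9A and GLA), and 4 were not called in any (TFE3, MCOLN1, HEXA and ATP6V1H). These 4 counts were not made over all genes, of which 14.0 to 22.3% rose and 15.7 to 22.8% fell in each comparison. They therefore describe the members and do not set them apart from other genes.

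The fall of TFEB, the best studied regulator of the CLEAR network, was the largest decrease among the members in 4 of the 5 comparisons; in TC32 CTSL fell more. TFEB lies at chr6:41683978-41736259 (GRCh38, minus strand). In TC32 at 3 days it had 6.13, 6.73 and 6.51 CPM with BETi against 17.6, 13.6 and 12.1 with DMSO (log2 change -1.16 ± 0.26, adjusted p = 0.000618). In A673 it had 2.17, 2.86 and 1.55 CPM with BETi against 6.05, 9.8 and 11.1 with DMSO at 20 days (log2 change -2.04 ± 0.28, adjusted p = 1.67e-06). The treated libraries of both lines lay below every DMSO library. At 3 days A673 cells had 2.84, 2.79 and 1.98 CPM with BETi against 12.3, 16.7 and 9.96 with DMSO (log2 change -2.37 ± 0.27, adjusted p = 2.44e-07). CHLA10 cells carried less TFEB RNA to begin with: 1.83, 1.26 and 1.3 CPM with BETi against 4.03, 3.45 and 3.81 with DMSO at 20 days (log2 change -1.36 ± 0.29, adjusted p = 0.000549). At 3 days the CHLA10 values were 1.03, 0.802 and 1.73 CPM with BETi against 2.29, 3.06 and 2.74 with DMSO (log2 change -1.18 ± 0.30, adjusted p = 0.00362). In all 5 comparisons the BETi and DMSO ranges of TFEB were apart and its counts per library ran from 18 to 402.

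TFE3, the paralog with the most RNA per length of exon among the 3 factors, was not called in any comparison. Its means were 55.6 ± 0.506 CPM with BETi and 54.8 ± 5.12 CPM with DMSO in TC32, and in A673 89.99 ± 12.2 CPM with BETi and 83.8 ± 13 CPM with DMSO at 20 days (SD, n = 3 each). The log2 changes of TFE3 were 0.02 in TC32, 0.10 and -0.25 in A673 at 20 and 3 days, and -0.25 and -0.16 in CHLA10 at 20 and 3 days. The sign in TC32 turned with RLE scaling and that in A673 at 20 days with scaling by library size alone. In A673 at 3 days TFE3 was called lower when DMSO replicate 3 was left out (log2 change -0.43, adjusted p = 0.00491). MITF, known best as the master factor of pigment cells, was scarce, between 0.823 and 11.8 CPM. It rose in A673 at 20 days, with 2.28, 3.69 and 2.25 CPM with BETi against 1.36, 1.25 and 0.823 with DMSO (log2 change 1.23 ± 0.34, adjusted p = 0.00431), and these groups did not overlap. In CHLA10 at 20 days MITF had 6.61, 6.8 and 11.8 CPM with BETi against 5.49, 5.71 and 5.35 with DMSO and missed the threshold (log2 change 0.60 ± 0.29, adjusted p = 0.118). Without BETi replicate 3, MITF there was 0.28 on the log2 scale, and without the 4 distant libraries 0.27. Of the pigment cell genes, TYR had 0 counts in 30 libraries, DCT and SOX10 in 14 each, MLANA in 4 and PMEL in 0, with PMEL reaching 5.17 CPM. The summed level of the 3 factors was 94.9 ± 13.1 CPM with BETi and 93.9 ± 10.7 CPM with DMSO in A673 at 20 days, and 63.1 ± 0.487 CPM with BETi and 70.4 ± 6.12 CPM with DMSO in TC32. It was lower without overlap in CHLA10 at 20 days (84.6 ± 6.17 CPM with BETi and 98.3 ± 5.02 CPM with DMSO) and 3 days (87 ± 4.01 CPM with BETi and 97.5 ± 6.15 CPM with DMSO). In A673 at 3 days the groups overlapped, with 86.2 ± 7.18 CPM with BETi and 111 ± 25.6 CPM with DMSO.

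**Figure D3:**
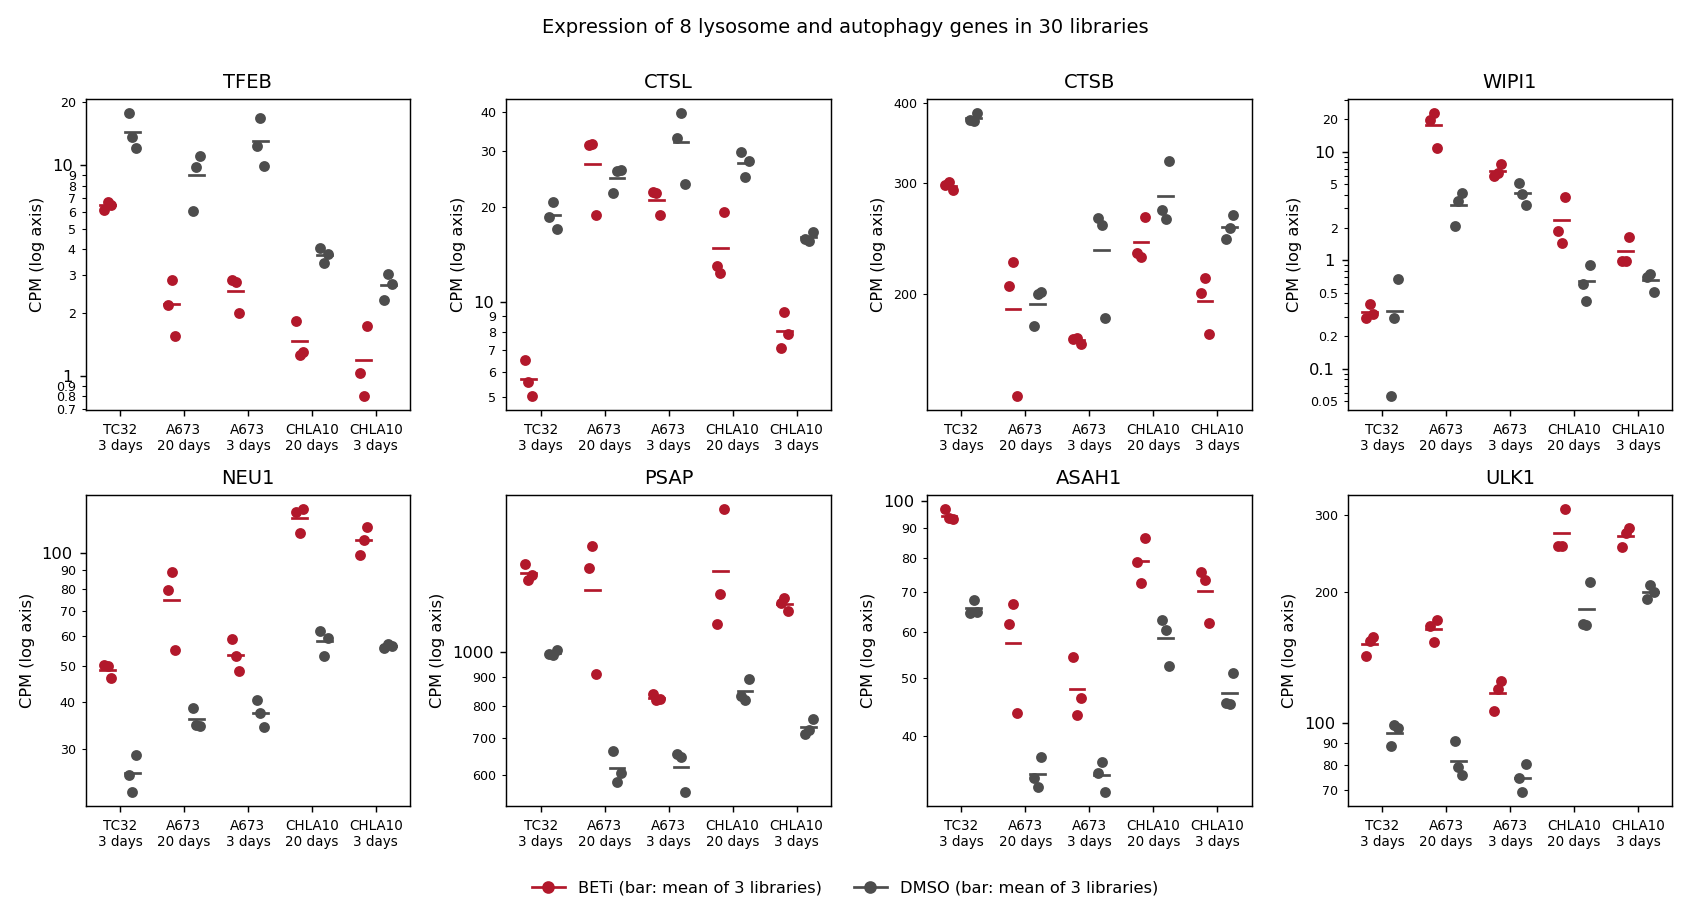
Each panel shows 1 gene, each point 1 library and each bar the mean of 3 libraries, in CPM on a log axis, with BETi (red) left of DMSO (grey) in every line and time. The 15 BETi points of TFEB lie below the DMSO points of their own line and time, those of NEU1, PSAP, ASAH1 and ULK1 lie above them, and A673 20-day BETi replicate 3 lies lower than its 2 partners for NEU1, PSAP, ASAH1 and WIPI1.

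The promoter windows show where the E-box of the MiT/TFE factors is written in these genes. RefSeq (GRCh38.p14) windows from 250 bases before to 50 after the annotated start were found for 30 of the 40 genes. The core E-box CACGTG, a palindrome that reads the same on both strands, was in 8 of the 30 (26.7%), against 7.26% of 35116 promoter windows of all genes. For each motif a member was counted where any of its windows held it. The share of all genes counts each window singly, so the 2 shares are unlike measures and a member with several windows has more chances. The extended form TCACGTGA, which contains the core, was in 5 of 30 (16.7%), against 0.98% of all: ATP6V0D1, CTSA, GAA, LAMP1 and MCOLN1. The variant TCATGTGA, searched on both strands, was in TPP1 alone (3.33% of the 30), against 1% of all promoters. These counts describe letters in a window and say nothing of binding. Windows are printed 5′ to 3′ on the gene's strand. They are those of a membrane protein called at both 20-day times (LAMP1, chr13:113296989-113297288, plus strand) and of hydrolases of different response (GAA, chr17:80101331-80101630, plus strand, and NEU1, chr6:31862772-31863071, minus strand). The others belong to a protective peptidase (CTSA, chr20:45891085-45891384, plus strand) and a channel that was never called (MCOLN1, chr19:7522374-7522673, plus strand). Capitals mark each CACGTG and, where the flanks complete it, TCACGTGA.
LAMP1: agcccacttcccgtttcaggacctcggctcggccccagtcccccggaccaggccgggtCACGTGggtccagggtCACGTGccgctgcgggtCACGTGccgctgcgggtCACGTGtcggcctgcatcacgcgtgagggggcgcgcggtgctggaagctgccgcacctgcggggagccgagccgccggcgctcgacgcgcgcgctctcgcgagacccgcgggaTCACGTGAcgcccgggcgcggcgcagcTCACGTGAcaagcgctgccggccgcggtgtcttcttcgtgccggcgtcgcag
GAA: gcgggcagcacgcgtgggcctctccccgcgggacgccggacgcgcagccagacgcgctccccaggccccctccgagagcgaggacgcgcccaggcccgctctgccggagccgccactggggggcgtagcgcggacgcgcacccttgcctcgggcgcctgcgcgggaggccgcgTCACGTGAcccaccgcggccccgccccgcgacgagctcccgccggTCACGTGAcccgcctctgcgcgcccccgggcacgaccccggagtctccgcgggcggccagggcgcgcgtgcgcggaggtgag
NEU1: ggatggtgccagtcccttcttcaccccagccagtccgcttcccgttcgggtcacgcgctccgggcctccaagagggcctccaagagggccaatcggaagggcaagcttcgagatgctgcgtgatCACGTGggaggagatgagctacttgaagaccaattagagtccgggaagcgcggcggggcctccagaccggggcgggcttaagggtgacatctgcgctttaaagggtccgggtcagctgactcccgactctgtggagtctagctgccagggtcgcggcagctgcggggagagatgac
CTSA: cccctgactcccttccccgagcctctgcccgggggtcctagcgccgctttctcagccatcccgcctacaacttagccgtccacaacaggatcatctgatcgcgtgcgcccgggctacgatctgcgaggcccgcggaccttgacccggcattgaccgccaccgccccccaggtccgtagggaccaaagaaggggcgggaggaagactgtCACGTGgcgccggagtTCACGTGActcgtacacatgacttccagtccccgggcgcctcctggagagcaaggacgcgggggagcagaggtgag
MCOLN1: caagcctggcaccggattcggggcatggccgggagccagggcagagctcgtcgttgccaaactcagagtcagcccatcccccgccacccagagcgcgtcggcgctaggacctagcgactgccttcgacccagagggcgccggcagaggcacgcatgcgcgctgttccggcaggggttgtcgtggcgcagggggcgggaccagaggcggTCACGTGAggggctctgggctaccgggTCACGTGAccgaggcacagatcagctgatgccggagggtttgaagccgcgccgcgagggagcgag
LAMP1 holds 4 core E-boxes beside 2 extended ones, GAA and MCOLN1 2 extended ones each, CTSA 1 core beside 1 extended and NEU1 a single core E-box. MCOLN1, with 2 extended E-boxes, had log2 changes of 0.16 in TC32, 0.17 and 0.22 in A673 and 0.25 and 0.26 in CHLA10 at 20 and 3 days, none of them called. ULK1, which rose in all 5 comparisons, has none of the 3 motifs in its window, and neither has TFEB in its 3 annotated windows.

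Calls among the glycosidases, lipid hydrolases and activators were rises, with the fall of GLA in TC32 as the exception. Of 9 genes, 8 rose in A673 (88.9%) and 6 in CHLA10 (66.7%) at 20 days with none lower. Among all genes 19.7% rose and 19.9% fell in A673, and 16.5% and 17.2% in CHLA10. At 3 days 4 rose in TC32 (44.4%) with 1 lower (11.1%), 4 rose in A673 (44.4%) and 5 in CHLA10 (55.6%) with none lower. Beside these stood 22.3% and 22.8% of all genes in TC32, 15.3% and 18.4% in A673 and 14.0% and 15.7% in CHLA10. NEU1, the sialidase that works in a complex with CTSA and GLB1, rose in all 5 comparisons. In TC32 it had 50.05, 49.9 and 46.3 CPM with BETi against 25.6, 22.9 and 28.8 with DMSO (log2 change 0.92 ± 0.13, adjusted p = 1.54e-06). In A673 it had 79.8, 89.2 and 55.2 CPM with BETi against 38.5, 34.7 and 34.5 with DMSO at 20 days (log2 change 1.06 ± 0.12, adjusted p = 1.49e-07). All BETi libraries of NEU1 lay above all DMSO libraries of the same line and time, also in A673 at 3 days, with 58.8, 53.2 and 48.4 CPM with BETi against 40.4, 37.4 and 34.2 with DMSO (log2 change 0.52 ± 0.12, adjusted p = 0.00199). CHLA10 at 20 days had 129, 113 and 131 CPM with BETi against 62, 53 and 59.3 with DMSO (log2 change 1.10 ± 0.12, adjusted p = 9.78e-08). CHLA10 at 3 days had 99.1, 109 and 118 CPM with BETi against 55.9, 57 and 56.4 with DMSO (log2 change 0.94 ± 0.12, adjusted p = 1.54e-06).

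PSAP, the precursor of the saposins that present glycolipids to hydrolases, had the highest level of the members per length of exon in each line (values below). In TC32 it had 1444, 1347 and 1380.2 CPM with BETi against 991, 986 and 1010.1 with DMSO (log2 change 0.48 ± 0.14, adjusted p = 0.00603). A673 cells had 1421, 1556 and 914 CPM with BETi against 663, 582 and 603 with DMSO at 20 days (log2 change 1.07 ± 0.14, adjusted p = 7.63e-07). The treated libraries of PSAP were the higher ones in each case. CHLA10 BETi replicate 3 gave the top value of the series at 20 days, among 1122, 1273 and 1812 CPM with BETi against 833, 821 and 894 with DMSO (log2 change 0.72 ± 0.14, adjusted p = 0.000205). For 3 days, PSAP stood at 1226, 1251 and 1185 CPM with BETi against 711, 724 and 758 with DMSO in CHLA10 (log2 change 0.74 ± 0.14, adjusted p = 0.000194). In A673 at 3 days it had 840.3, 819 and 822 CPM with BETi against 653, 647 and 558 with DMSO (log2 change 0.42 ± 0.14, adjusted p = 0.0217). That call was lost without DMSO replicate 3 (log2 change 0.35, adjusted p = 0.0796) or BETi replicate 1 (log2 change 0.41, adjusted p = 0.0549). The PSAP groups did not overlap in any line or time.

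ASAH1, acid ceramidase, rose in each line and time. It had 96.7, 93.4 and 92.9 CPM with BETi against 64.5, 67.9 and 64.8 with DMSO in TC32 (log2 change 0.52 ± 0.12, adjusted p = 0.000698). In A673 at 20 days the values were 61.8, 66.7 and 43.7 CPM with BETi against 33.9, 32.7 and 36.8 with DMSO (log2 change 0.74 ± 0.12, adjusted p = 1.59e-05). Its other log2 changes were 0.49 in A673 at 3 days (adjusted p = 0.00232), 0.43 in CHLA10 at 20 days (adjusted p = 0.00508) and 0.58 in CHLA10 at 3 days (adjusted p = 0.000491). No BETi library of ASAH1 overlapped a DMSO library of its line and time. LIPA, the acid lipase that frees cholesterol from its esters, rose in 4 comparisons. The largest rise, in A673 at 20 days, had 153, 169 and 71.4 CPM with BETi against 46.4, 53.1 and 52.4 with DMSO (log2 change 1.37 ± 0.17, adjusted p = 5.94e-07). BETi replicate 3 was the lowest of those treated libraries and still above the DMSO ones. In A673 at 3 days LIPA overlapped between groups, with 61, 54.1 and 51.8 CPM with BETi against 55.4, 60.4 and 64.1 with DMSO (log2 change -0.11 ± 0.17, adjusted p = 0.658). It rose in TC32 (log2 change 0.57 ± 0.17, adjusted p = 0.0084), a call lost without TC32 DMSO replicate 1 (log2 change 0.47, adjusted p = 0.0569), and in CHLA10 at 3 days (log2 change 0.68 ± 0.17, adjusted p = 0.00416). The LIPA call in CHLA10 at 20 days (log2 change 0.45 ± 0.17, adjusted p = 0.0432) was lost with the replicate number as a block (adjusted p = 0.0527). It was lost too when any 1 library but BETi replicate 2 was left out (adjusted p between 0.0874 and 0.129).

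GAA, the acid glucosidase that degrades glycogen in lysosomes, had the largest increase of the members in CHLA10 at 3 days. It had 84.2, 95.9 and 60.7 CPM with BETi against 29, 30.6 and 33 with DMSO there (log2 change 1.38 ± 0.17, adjusted p = 1.12e-06). BETi replicate 3 was the lowest treated library and still above all controls. At 20 days GAA rose in CHLA10 (log2 change 0.63 ± 0.17, adjusted p = 0.00505) and in A673 (log2 change 0.77 ± 0.17, adjusted p = 0.00066). In TC32 GAA missed the threshold (log2 change 0.31 ± 0.17, adjusted p = 0.135). GUSB, the beta-glucuronidase often used as a reference gene in PCR, rose in A673 at 20 days (0.51) and 3 days (0.43) and in CHLA10 at 20 days (0.41). It has pseudogene copies that could share its reads. GLB1, the beta-galactosidase stained in senescence assays, rose in A673 at 20 days only among the 5 comparisons, with 102, 106 and 72.6 CPM with BETi against 55.5, 58.2 and 56.6 with DMSO (log2 change 0.72 ± 0.12, adjusted p = 1.54e-05). GLA, alpha-galactosidase A, fell in TC32 with 19.3, 16.6 and 15.8 CPM with BETi against 26.8, 24 and 23.8 with DMSO (log2 change -0.53 ± 0.15, adjusted p = 0.00397). It was called higher in A673 at 20 days (log2 change 0.39 ± 0.14, adjusted p = 0.029), where its groups overlapped. That call was lost without BETi replicate 1 (log2 change 0.32, adjusted p = 0.126) or BETi replicate 2 (log2 change 0.25, adjusted p = 0.21). The same held without DMSO replicate 2 (log2 change 0.33, adjusted p = 0.114) or DMSO replicate 3 (log2 change 0.33, adjusted p = 0.112). HEXA, a subunit of beta-hexosaminidase, stayed between 4.19 and 12.9 CPM and was not called. Its exons overlap those of a second annotated gene on the same strand, so its counts are uncertain.

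Among the membrane and lipid carrier proteins, 4 of 5 rose in A673 at 20 days (80%, beside 19.7% of all genes). In each other comparison 1 or 2 rose (20 to 40%, beside 14.0 to 22.3% of all genes). None fell in any comparison, where 15.7 to 22.8% of all genes fell. NPC1, which moves cholesterol out of the lysosome, rose in 4 comparisons. Its values were 44.5, 60.8 and 62.6 CPM with BETi against 27.8, 35.2 and 32 with DMSO in TC32 (log2 change 0.82 ± 0.12, adjusted p = 6e-06). In A673 at 20 days they were 139, 138 and 94.4 CPM with BETi against 60.6, 60.5 and 62.1 with DMSO (log2 change 1.02 ± 0.12, adjusted p = 1.89e-07). CHLA10 at 20 days gave 74.6, 69.6 and 70.7 CPM with BETi against 43.3, 41.4 and 41.7 with DMSO (log2 change 0.77 ± 0.12, adjusted p = 2.07e-05), with no overlap of groups in these 3 comparisons. NPC2, the soluble protein that hands cholesterol to NPC1, had 90.4, 106 and 76.6 CPM with BETi against 38, 36.3 and 40.01 with DMSO in A673 at 20 days (log2 change 1.26 ± 0.13, adjusted p = 2.14e-08). It rose in A673 at 3 days too (log2 change 0.72 ± 0.13, adjusted p = 0.000115). Its smaller rise in CHLA10 at 3 days (log2 change 0.38 ± 0.13, adjusted p = 0.0281) lost its call when BETi replicate 1 or 2 or any of the DMSO replicates was left out, with adjusted p between 0.0513 and 0.093.

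LAMP1, the major glycoprotein of the lysosomal membrane, had 241, 265 and 133 CPM with BETi against 124, 96.2 and 90.9 with DMSO in A673 at 20 days (log2 change 1.04 ± 0.19, adjusted p = 7.07e-05), with BETi replicate 3 near the highest control. It rose in A673 at 3 days (log2 change 0.60 ± 0.18, adjusted p = 0.0133; log2 change 0.56, adjusted p = 0.0552 without DMSO replicate 2). In CHLA10 at 20 days it had 169, 169 and 252 CPM with BETi against 108, 115 and 167 with DMSO (log2 change 0.60 ± 0.18, adjusted p = 0.0133). The call was lost without BETi replicate 3 (log2 change 0.38, adjusted p = 0.137), DMSO replicate 1 (log2 change 0.48, adjusted p = 0.0856) or DMSO replicate 2 (log2 change 0.52, adjusted p = 0.0723). In TC32 the LAMP1 log2 change was -0.14 and not called. LAMP2, which in one isoform serves chaperone-mediated autophagy, rose in A673 at 20 days, with 210.1, 215 and 109 CPM with BETi against 85.9, 72.5 and 74.9 with DMSO (log2 change 1.19 ± 0.16, adjusted p = 1.93e-06). Elsewhere LAMP2 was not called, and CHLA10 held the most of it, 309 ± 53.3 CPM with BETi and 295 ± 11.3 CPM with DMSO at 20 days. MCOLN1, the calcium channel that signals to TFEB during starvation, lay between 23.7 and 37.2 CPM in the 30 libraries. Its exons overlap another annotated gene on the same strand.

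The cathepsins and peptidases moved in both directions. CTSL, a cysteine protease, fell in all 3 lines at 3 days and in CHLA10 at 20 days. It had 6.52, 5.55 and 5.01 CPM with BETi against 18.5, 20.8 and 17 with DMSO in TC32 (log2 change -1.72 ± 0.20, adjusted p = 1.54e-07), the largest fall of any member there. In CHLA10 at 3 days it had 7.11, 9.27 and 7.89 CPM with BETi against 15.8, 15.6 and 16.6 with DMSO (log2 change -0.98 ± 0.20, adjusted p = 0.000338). The treated CTSL libraries lay below all controls in both lines, and again in CHLA10 at 20 days (log2 change -0.89 ± 0.19, adjusted p = 0.000562). In A673 at 3 days the fall (log2 change -0.61 ± 0.19, adjusted p = 0.0126) lost its call without BETi replicate 3 (log2 change -0.53, adjusted p = 0.0681) or DMSO replicate 2 (log2 change -0.43, adjusted p = 0.116). At 20 days the A673 groups overlapped (log2 change 0.15 ± 0.19, adjusted p = 0.576). CTSB, a cysteine cathepsin and the member next to PSAP per length of exon in TC32 and A673, fell in TC32 with 297, 300.1 and 292 CPM with BETi against 376, 376 and 385 with DMSO (log2 change -0.35 ± 0.13, adjusted p = 0.0296). It fell in A673 at 3 days (log2 change -0.47 ± 0.13, adjusted p = 0.00668) and in CHLA10 at 3 days (log2 change -0.39 ± 0.13, adjusted p = 0.0276), and was not called at 20 days. The CTSB call in TC32 was lost when any 1 of its 6 libraries was left out (adjusted p between 0.0553 and 0.0799), and in CHLA10 without BETi replicate 1 or 3 or DMSO replicate 2 or 3 (adjusted p 0.0591 to 0.129), although the groups did not overlap.

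CTSD, the aspartic protease of lysosomes, fell in TC32 with 62.4, 44.3 and 41.3 CPM with BETi against 117, 88.8 and 96 with DMSO (log2 change -1.03 ± 0.12, adjusted p = 1.12e-07). Its log2 changes elsewhere were between -0.16 and 0.26 with no call. CTSK, the collagen-degrading cathepsin known from osteoclasts, was low. It fell at 20 days in A673 with 3.02, 2.61 and 4.12 CPM with BETi against 6.05, 6.71 and 5.38 with DMSO (log2 change -0.89 ± 0.23, adjusted p = 0.0029). It also fell at 20 days in CHLA10 with 4.51, 3.18 and 3.3 CPM with BETi against 9.43, 7.88 and 5.23 with DMSO (log2 change -1.04 ± 0.23, adjusted p = 0.000746), again without overlap. CTSF, another cysteine cathepsin, had a wide range of responses. It rose in A673 at 20 days with 33.6, 31 and 54.9 CPM with BETi against 7.31, 12.5 and 10.9 with DMSO (log2 change 1.96 ± 0.20, adjusted p = 2.1e-08). BETi replicate 3 was the highest of these libraries. In CHLA10 it rose at 3 days with 87.4, 101 and 73.2 CPM with BETi against 49.6, 48.1 and 46.4 with DMSO (log2 change 0.86 ± 0.19, adjusted p = 0.000933). At 20 days CHLA10 had 86.6, 88.2 and 85.4 CPM with BETi against 131, 126 and 84 with DMSO, with DMSO replicate 3 at the level of the treated libraries, and no call (log2 change -0.39 ± 0.18, adjusted p = 0.104). CTSF rose in A673 at 3 days (log2 change 0.64 ± 0.19, adjusted p = 0.0125), which was lost without DMSO replicate 3 (log2 change 0.50, adjusted p = 0.074).

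CTSA, the carboxypeptidase that protects NEU1 and GLB1, rose in A673 and CHLA10 but not in TC32, where its log2 change was -0.06. It had 102, 100.4 and 94.7 CPM with BETi against 60.5, 63.1 and 64.3 with DMSO in CHLA10 at 3 days (log2 change 0.66 ± 0.13, adjusted p = 0.000353), with no overlap. At 20 days the log2 changes of CTSA were 0.84 in A673 (adjusted p = 1e-05) and 0.68 in CHLA10 (adjusted p = 0.000201). Its call in A673 at 3 days (log2 change 0.40 ± 0.13, adjusted p = 0.0201) was lost without BETi replicate 2 (log2 change 0.39, adjusted p = 0.0512) or DMSO replicate 3 (log2 change 0.32, adjusted p = 0.0832). TPP1, the tripeptidyl peptidase, rose in TC32 with 88.4, 97.9 and 102 CPM with BETi against 53.1, 55.7 and 55.6 with DMSO (log2 change 0.81 ± 0.10, adjusted p = 2.1e-07). It rose as well in CHLA10 at 3 days (0.49, adjusted p = 0.000294) and in A673 at 20 days (0.40, adjusted p = 0.00135).

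Of the 5 proton pump members, 0 to 2 rose in each comparison (0 to 40%), which spans the 14.0 to 22.3% of all genes. None fell, where 15.7 to 22.8% of all genes did, and with 5 genes that is close to the background. ATP6V0D1, a membrane-sector subunit, rose in A673 at 20 days with 118, 122 and 79 CPM with BETi against 73.5, 60.9 and 58.7 with DMSO (log2 change 0.72 ± 0.13, adjusted p = 8.78e-05). It also rose in A673 at 3 days (log2 change 0.54 ± 0.13, adjusted p = 0.00276) and in CHLA10 at 20 days (log2 change 0.58 ± 0.14, adjusted p = 0.00153). The catalytic-sector subunits ATP6V1A and ATP6V1B2 rose in TC32 alone among the 5 comparisons. ATP6V1A had 88.1, 108 and 98.3 CPM with BETi against 69.5, 69.9 and 74 with DMSO (log2 change 0.47 ± 0.13, adjusted p = 0.00463). ATP6V1B2 had 163, 181 and 178 CPM with BETi against 123, 134 and 122 with DMSO (log2 change 0.47 ± 0.10, adjusted p = 0.000303). Neither pair of groups overlapped. The accessory protein ATP6AP1 rose in A673 at 20 days (log2 change 0.59 ± 0.11, adjusted p = 7.33e-05). ATP6V1H, a regulatory subunit, had log2 changes between -0.11 and 0.05.

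Autophagy genes rose more often than they fell, except in A673 at 3 days, where the counts were equal. Of 10, 6 rose and none fell in A673 (60% and 0%) and 5 rose and 2 fell in CHLA10 (50% and 20%) at 20 days. The shares of all genes were 19.7% and 19.9% in A673 and 16.5% and 17.2% in CHLA10. At 3 days 4 rose and none fell in TC32 (40% and 0%, all genes 22.3% and 22.8%). In A673 2 rose and 2 fell (20% each, all genes 15.3% and 18.4%). In CHLA10 4 rose and 2 fell (40% and 20%, all genes 14.0% and 15.7%). The A673 shares at 3 days and the lower share in CHLA10 at both times lay near those of all genes. ULK1, the kinase that starts autophagosome formation, had 142, 155 and 158 CPM with BETi against 88.5, 99 and 97.3 with DMSO in TC32 (log2 change 0.68 ± 0.10, adjusted p = 4.06e-06). A673 at 20 days gave 167, 153 and 172 CPM with BETi against 90.7, 79 and 75.9 with DMSO (log2 change 1.00 ± 0.10, adjusted p = 8.1e-09). Treated libraries were above all controls in each line, including A673 at 3 days with 106, 119.9 and 125 CPM with BETi against 74.6, 69.3 and 80.4 with DMSO (log2 change 0.65 ± 0.10, adjusted p = 1.48e-05). ULK1 was most abundant in CHLA10, with 255, 255 and 310.0 CPM with BETi against 169, 168 and 211 with DMSO at 20 days (log2 change 0.58 ± 0.10, adjusted p = 4.07e-05). At 3 days it had 254, 273 and 281 CPM with BETi against 193, 207 and 200.2 with DMSO there (log2 change 0.43 ± 0.10, adjusted p = 0.00149).

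WIPI1, a phosphoinositide-binding protein recruited to forming autophagosomes, showed the largest increase of any member at 20 days. It had 19.6, 22.6 and 10.8 CPM with BETi against 2.08, 3.52 and 4.17 with DMSO in A673 (log2 change 2.44 ± 0.37, adjusted p = 6.14e-06). In CHLA10 WIPI1 had 1.87, 1.44 and 3.79 CPM with BETi against 0.61, 0.425 and 0.91 with DMSO (log2 change 1.87 ± 0.44, adjusted p = 0.00142), and neither pair of groups overlapped. At 3 days it was not called in A673 (log2 change 0.72 ± 0.36, adjusted p = 0.125), CHLA10 (log2 change 0.89 ± 0.46, adjusted p = 0.151) or TC32, where it was between 0.0558 and 0.666 CPM in all 6 libraries. Its exons overlap those of ARSG on the opposite strand, and the strand setting of the counting is not given in the sources used here.

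SQSTM1 (p62), the receptor that ties ubiquitinated cargo to the autophagosome, had 143, 151 and 89 CPM with BETi against 71.4, 60.7 and 60.5 with DMSO in A673 at 20 days (log2 change 0.99 ± 0.14, adjusted p = 3.03e-06). The CHLA10 values at 20 days were 97.4, 106 and 125 CPM with BETi against 65.2, 60.7 and 75.7 with DMSO (log2 change 0.70 ± 0.14, adjusted p = 0.000318). At 3 days its smaller rises in TC32 (log2 change 0.38 ± 0.14, adjusted p = 0.0292) and CHLA10 (log2 change 0.42 ± 0.14, adjusted p = 0.0245) depended on single libraries. The TC32 call was lost when any 1 of the 6 libraries was left out (adjusted p 0.0529 to 0.0729), and the CHLA10 call when any but BETi replicate 3 was (adjusted p 0.0555 to 0.0856). In A673 at 3 days the treated libraries had 60.9 to 65 CPM of SQSTM1. DMSO replicate 3, at 62.2 CPM, lay inside that range, and the other 2 controls had 43.2 and 44.1 CPM. MAP1LC3B (LC3B), the ubiquitin-like protein that coats autophagosomes, rose in A673 at 20 days with 229.6, 233 and 128 CPM with BETi against 78.3, 71.8 and 70.5 with DMSO (log2 change 1.42 ± 0.15, adjusted p = 2.46e-08). It rose there at 3 days too (log2 change 0.57 ± 0.15, adjusted p = 0.00391). Its call in CHLA10 at 3 days (log2 change 0.42 ± 0.15, adjusted p = 0.0333) was lost when any 1 of the 6 libraries was left out (adjusted p 0.0556 to 0.114). It shares sequence with a near copy, MAP1LC3B2.

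Its relatives GABARAPL1 and GABARAPL2 differed. GABARAPL2 rose in TC32 (log2 change 0.30 ± 0.10, adjusted p = 0.0124; log2 change 0.25, adjusted p = 0.0572 without BETi replicate 1). It also rose in A673 at 20 days (0.33), and in CHLA10 at 3 days (0.53) and 20 days (0.31). The call in CHLA10 at 20 days was lost without BETi replicate 2, DMSO replicate 2 or DMSO replicate 3 (adjusted p 0.0657 to 0.0845). GABARAPL1 fell in CHLA10 at 20 days, with 41.1, 46.4 and 75.4 CPM with BETi against 81, 89.7 and 89.1 with DMSO (log2 change -0.68 ± 0.20, adjusted p = 0.00963). BETi replicate 3 was near the controls, and the call was lost without BETi replicate 1 (log2 change -0.51, adjusted p = 0.0682) or BETi replicate 2 (log2 change -0.57, adjusted p = 0.0555). ATG9A, the membrane protein of autophagy vesicles, rose in TC32 (log2 change 0.52 ± 0.11, adjusted p = 0.000442), with overlapping groups of 28.5, 39.3 and 34.7 CPM with BETi against 21.7, 29.4 and 20.3 with DMSO. It fell in CHLA10 at 20 days with 33.7, 33.9 and 32.7 CPM with BETi against 45, 43.3 and 46.3 with DMSO (log2 change -0.42 ± 0.11, adjusted p = 0.00358). At 3 days it fell in A673 (-0.31) and CHLA10 (-0.34). The A673 call was lost without BETi replicate 2 or 3 or DMSO replicate 1 (adjusted p between 0.0731 and 0.107), and the CHLA10 call without BETi replicate 1 or 3 or DMSO replicate 2 or 3 (adjusted p 0.0517 to 0.0705). ATG7, the enzyme that activates the ubiquitin-like proteins, fell in A673 at 3 days with 14.7, 13 and 13.5 CPM with BETi against 25.6, 18.3 and 18.2 with DMSO (log2 change -0.59 ± 0.15, adjusted p = 0.00279). It rose in CHLA10 at 20 days (log2 change 0.40 ± 0.15, adjusted p = 0.0354), a call lost when any 1 library but BETi replicate 1 was left out (adjusted p between 0.0598 and 0.149). BECN1 and UVRAG, partners in the lipid kinase complex of autophagy, were each called once. BECN1 rose in A673 at 20 days (log2 change 0.45 ± 0.15, adjusted p = 0.0148), with overlapping groups. The call was lost without BETi replicate 1 (log2 change 0.33, adjusted p = 0.116) or BETi replicate 2 (log2 change 0.31, adjusted p = 0.13). UVRAG fell in CHLA10 at 3 days with 31.8, 29.6 and 31.8 CPM with BETi against 39.9, 39.5 and 38.9 with DMSO (log2 change -0.34 ± 0.11, adjusted p = 0.0185), a call lost without BETi replicate 2 or DMSO replicate 1 or 2 (adjusted p 0.0538 to 0.0821).

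Whether the responses at 20 and at 3 days differed was tested as the difference of the 2 responses within a line. In A673, 10 of 39 members had a higher log2 change at 20 than at 3 days and none a lower one (all genes, either direction, 7.26%), with a median difference of 0.42 over the members. The largest were WIPI1 (difference 1.73 ± 0.51, adjusted p = 0.0351), LIPA (difference 1.48 ± 0.24, adjusted p = 0.000501) and CTSF (difference 1.33 ± 0.28, adjusted p = 0.00358). The others were MAP1LC3B (0.85), NPC1 (0.84), LAMP2 (0.82), ATG7, SQSTM1 and PSAP (0.66 each) and GLB1 (0.60). The count depended on single libraries. It was 16 without 20-day BETi replicate 3, the library with the lowest member sum of its group. It was 3 to 6 without 20-day BETi replicate 1 (3) or 2 (4), 20-day DMSO replicate 1 (6), 2 (5) or 3 (5), 3-day BETi replicate 1 (6), 2 (4) or 3 (4), or 3-day DMSO replicate 2 (6). The WIPI1 difference lost its call in 9 of the 12 fits that left out 1 library (adjusted p 0.0542 to 0.108). In CHLA10 2 of 39 differed (5.13%, near the 6.32% of all genes). CTSF was lower at 20 than at 3 days (difference -1.25 ± 0.26, adjusted p = 0.00615) and GUSB higher (difference 0.51 ± 0.15, adjusted p = 0.0412). The GUSB call was lost in 9 of the 12 fits that left out 1 library (adjusted p 0.0596 to 0.133). With the replicate number as a block, 4 differed. That count was 5 without CHLA10 20-day DMSO replicate 3 and 1 without 3-day BETi replicate 1 or 2, any 3-day DMSO replicate, 20-day BETi replicate 3 or 20-day DMSO replicate 1 or 2.

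**Figure D4:**
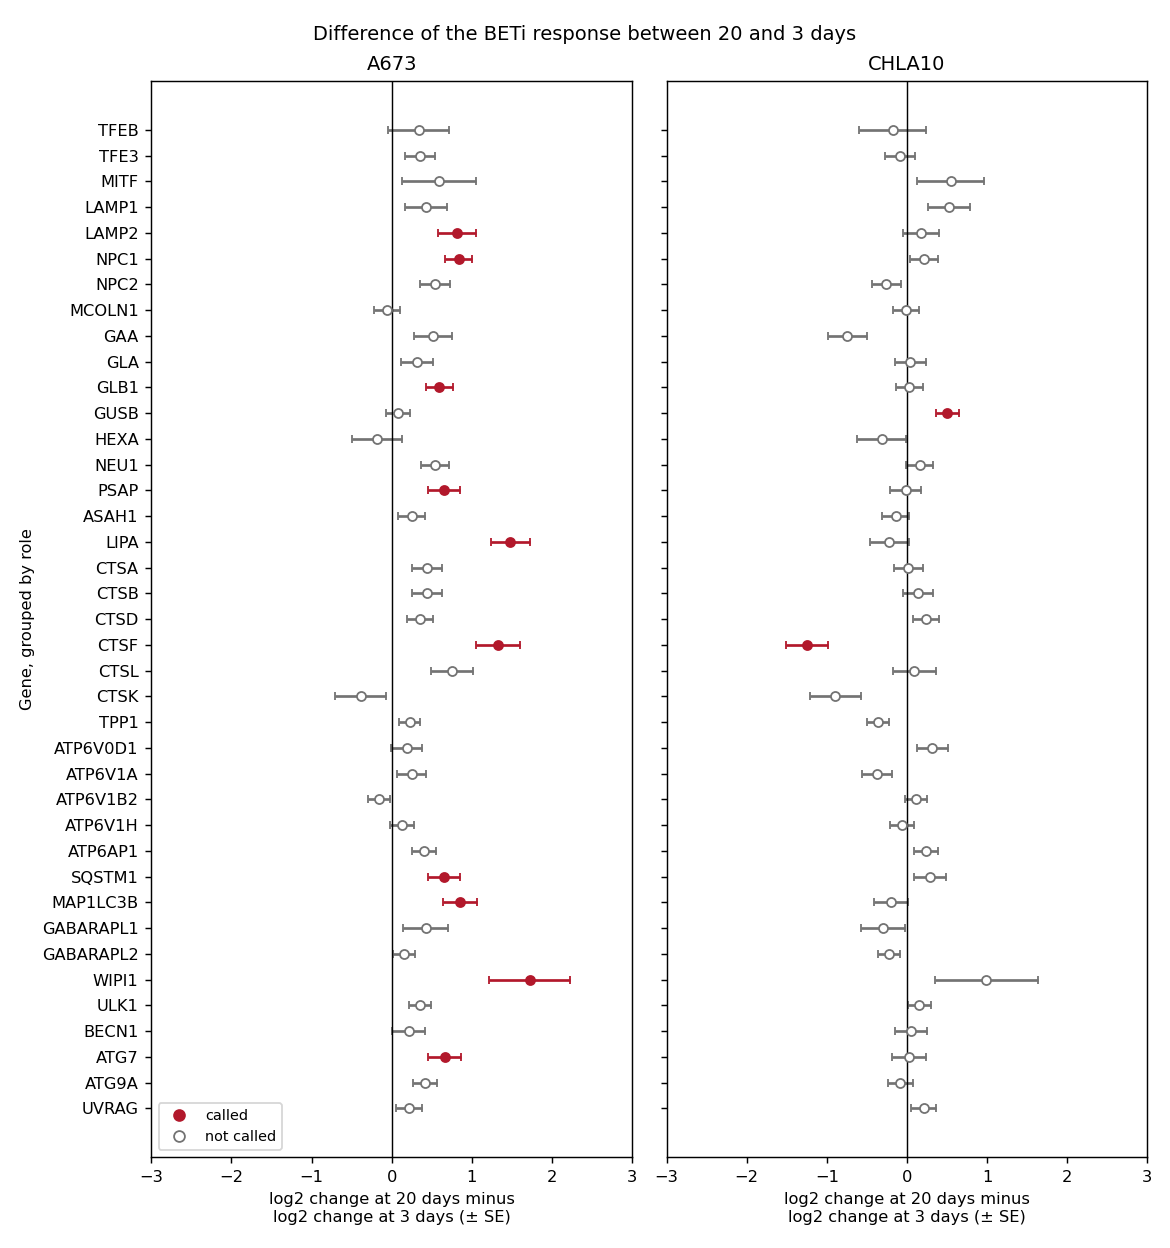
Each point is the difference between the log2 change (BETi over DMSO) at 20 days and that at 3 days for 1 gene, with its standard error as the bar, in A673 (left) and CHLA10 (right), and filled red points are called at adjusted p under 0.05. In A673 the 10 called points lie right of 0, led by WIPI1, LIPA and CTSF, and in CHLA10 only CTSF (left of 0) and GUSB (right of 0) are called.

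Direct tests between lines gave the following. At 20 days 9 of 39 members had a higher log2 change in A673 than in CHLA10 and none a lower one, 23.1% against 21.9% of all genes in either direction, a share near the background. These were CTSF (difference 2.35 ± 0.27, adjusted p = 6.82e-07), MAP1LC3B (difference 1.2 ± 0.21, adjusted p = 0.000142), NPC2 (difference 1.14 ± 0.18, adjusted p = 5.27e-05), LAMP2 (1.13), CTSL (1.04), LIPA (0.92), GLB1 (0.92), ATG9A (0.53) and ULK1 (0.42). CTSL and ATG9A had fallen in CHLA10 (-0.89 and -0.42) and were not called in A673 (0.15 and 0.10). The count was 15 without A673 20-day BETi replicate 3.

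At 3 days TC32 and A673 differed most, in 9 members upward and 7 downward (all genes 24.2%). TFEB fell less in TC32 than in A673 (difference 1.21 ± 0.37, adjusted p = 0.0179), a call lost without A673 BETi replicate 3 (adjusted p = 0.0636), A673 DMSO replicate 2 (adjusted p = 0.0667) or TC32 DMSO replicate 3 (adjusted p = 0.0504). CTSL fell more in TC32 (difference -1.11 ± 0.27, adjusted p = 0.00405). CTSK, not called in either line by itself, differed upward in TC32 (difference 0.95 ± 0.31, adjusted p = 0.0274), a call lost in 6 of the 12 fits without 1 library (adjusted p 0.0566 to 0.0885). The count of 16 became 10 without TC32 BETi replicate 2 or 3 or TC32 DMSO replicate 1, and 9 without TC32 DMSO replicate 3. TC32 and CHLA10 differed in 1 member upward, ATG9A (0.86), and 4 downward, 12.8% in all and near the 13.8% of all genes. The 4 were GAA (difference -1.06 ± 0.24, adjusted p = 0.0046), CTSF (difference -1.01 ± 0.26, adjusted p = 0.011), CTSD (difference -0.87 ± 0.17, adjusted p = 0.00116) and CTSA (-0.72). A673 and CHLA10 differed in GUSB upward (0.53) and in 3 members downward (10.3% in all, near the 10.5% of all genes). Those 3 were GAA (difference -1.12 ± 0.24, adjusted p = 0.00364), ATG7 (difference -0.97 ± 0.21, adjusted p = 0.00358) and LIPA (difference -0.79 ± 0.25, adjusted p = 0.0387). The LIPA call was lost in 9 of 12 fits without 1 library (adjusted p 0.0597 to 0.0934). That count of 4 became 2 without CHLA10 BETi replicate 1 or DMSO replicate 3.

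The 3-day DMSO libraries of A673 were themselves uneven. The summed CPM of 12 target genes of ATF4, the factor of the amino acid and unfolded protein stress response, was 824 to 826 in the 3 BETi libraries, against 3744, 2856 and 1131 in DMSO replicates 1, 2 and 3. DMSO replicate 3 also had the lowest CTSB, GAA and GABARAPL1 among these controls and the highest SQSTM1 and LIPA. What the uneven stress level did to the A673 results at 3 days was not tested.

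DMSO cells of the 2 times were compared as well, and the shares of members called were near those of all genes. In CHLA10, 6 members were higher at 20 than at 3 days in DMSO and none lower, 15.4% against 15.1% of all genes in either direction. CTSF had 131, 126 and 84 CPM at 20 days and 49.6, 48.1 and 46.4 CPM at 3 days (log2 change 1.24 ± 0.19, adjusted p = 0.000107, 20 over 3 days). The others were GAA (0.93), CTSL (0.78), TPP1 (0.69), LIPA (0.53) and NPC2 (0.41). The 20-day CTSF controls lay above the 3-day ones and overlapped the 3-day treated libraries. In A673 2 members were lower at 20 days in DMSO (5.13%, all genes 6.10%), CTSF (log2 change -0.66 ± 0.20, adjusted p = 0.0489) and GAA (log2 change -0.63 ± 0.17, adjusted p = 0.029). The count was 13 without 3-day DMSO replicate 3 and 1 without 20-day DMSO replicate 3. It was 0 by edgeR without 3-day DMSO replicate 1 or 2 or 20-day DMSO replicate 1, where 5, 6 and 7 members had an unadjusted p under 0.05, and 12 members did with all libraries. DESeq2 called 4 and limma-voom 1 with all libraries. The time comparisons of the responses rest on these controls as well as on the treated cells.

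Levels can be compared between genes only per length, here as CPM per kilobase of merged exon in 3-day DMSO cells (mean ± SD, n = 3). PSAP led in each line, at 308 ± 3.85 in TC32, 191 ± 16.4 in A673 and 226 ± 7.46 in CHLA10. CTSB came next in TC32 (51 ± 0.738) and A673 (31.6 ± 6.0), and LAMP2 in CHLA10 (48.9 ± 0.912), where ATP6AP1 (43.8 ± 0.371) and CTSB (34.4 ± 1.53) followed. CTSF stood at 43.3 ± 2.49 in TC32, 5.58 ± 1.04 in A673 and 16.6 ± 0.551 in CHLA10. LAMP1 had 41.7 ± 1.01 in TC32, 13.6 ± 1.22 in A673 and 25.2 ± 0.603 in CHLA10. TFEB had 2.56 ± 0.505 in TC32 and 2.3 ± 0.608 in A673, which lay within 1 SD of each other, and 0.478 ± 0.069 in CHLA10. TFE3 exceeded TFEB in each line, with 12.8 ± 1.2, 22.4 ± 5.23 and 20.5 ± 1.75 in TC32, A673 and CHLA10.

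**Figure D5:**
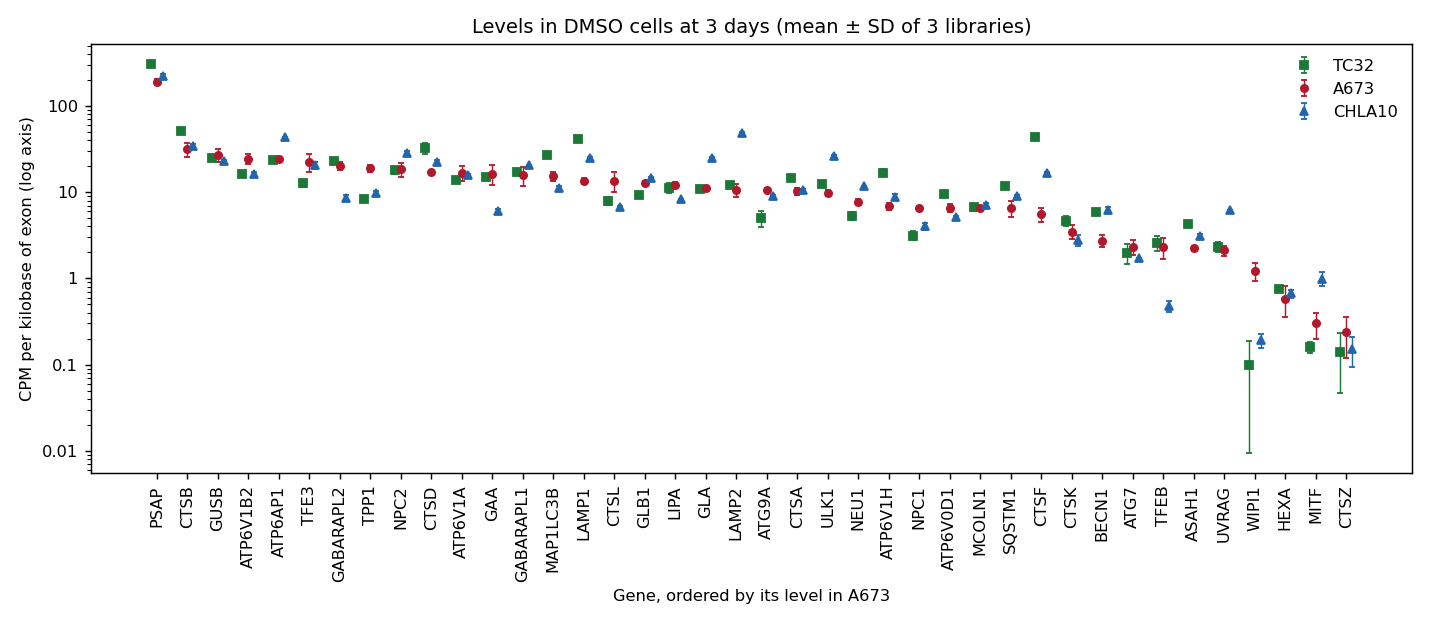
Points are mean CPM per kilobase of exon in 3-day DMSO cells with the SD of 3 libraries as the bar, on a log axis, for 40 genes ordered by their level in A673; squares are TC32, circles A673 and triangles CHLA10. PSAP stands above all others in each line, and WIPI1, HEXA, MITF and CTSZ lie at the low end. CTSF shows the lines far apart, while LAMP2 (higher) and TFEB (lower) show CHLA10 apart from TC32 and A673.

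A wider collection of 141 lysosome and autophagy genes, none of them members, was read the same way, and 138 of them were tested. A gene of these lists is named only for comparisons where it was among the 2 largest calls of its list and direction. It may have been called in comparisons not named for it. With BETi 65 rose and 15 fell in A673 and 33 rose and 24 fell in CHLA10 at 20 days. At 3 days 47 rose and 29 fell in TC32, 36 rose and 17 fell in A673 and 35 rose and 15 fell in CHLA10. The higher share was 47.1% in A673 and 23.9% in CHLA10 at 20 days, and 34.1% in TC32, 26.1% in A673 and 25.4% in CHLA10 at 3 days, beside 19.7%, 16.5%, 22.3%, 15.3% and 14.0% of all genes in the same order. The lower share in CHLA10 at 20 days, 17.4%, and in TC32, 21%, lay near those of all genes (17.2% and 22.8%). It was 10.9% in A673 at 20 days, 12.3% in A673 at 3 days and 10.9% in CHLA10 at 3 days. All genes stood at 19.9%, 18.4% and 15.7% there. Of 32 other lysosomal hydrolases 20 rose and 6 fell in A673 at 20 days (62.5% and 18.8%, all genes 19.7% and 19.9%). In TC32 8 rose and 14 fell (25% and 43.8%, all genes 22.3% and 22.8%). The lower share in A673 and the higher share in TC32 thus lay near those of all genes. MANBA, beta-mannosidase, rose in A673 at 20 days (log2 change 2.86 ± 0.20, adjusted p = 1.88e-11) and 3 days (1.34), in CHLA10 at 3 days (1.26) and in TC32 (0.83). MAN2B1, the lysosomal alpha-mannosidase, rose in CHLA10 at 20 days (log2 change 1.11 ± 0.09, adjusted p = 7.92e-10) and at 3 days in CHLA10 (0.98) and A673 (0.96). FUCA1, the fucosidase, rose in A673 at 20 days (log2 change 1.60 ± 0.13, adjusted p = 3.1e-10). CTSH, a cathepsin, fell in A673 at 20 days (-1.65) and 3 days (-1.88), in CHLA10 at 20 days (-1.57) and in TC32 (-1.57). SMPD1, acid sphingomyelinase, fell in A673 at 20 days (-1.36) and 3 days (-1.72) and in CHLA10 at 3 days (-1.09).

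Of 27 other membrane, transport and sorting genes 12 rose and 1 fell in A673 at 20 days (44.4% and 3.7%, all genes 19.7% and 19.9%). In CHLA10 at 20 days 8 rose and 6 fell (29.6% and 22.2%, all genes 16.5% and 17.2%). After 3 days 9 rose and 3 fell in TC32 (33.3% and 11.1%, all genes 22.3% and 22.8%). In A673 5 rose and 2 fell (18.5% and 7.41%, all genes 15.3% and 18.4%), the higher share being near that of all genes. In CHLA10 6 rose and 3 fell (22.2% and 11.1%, all genes 14.0% and 15.7%). SORT1, the sorting receptor sortilin, rose in A673 at 20 days (log2 change 1.35 ± 0.19, adjusted p = 3.93e-06) and in CHLA10 at 20 days (log2 change 1.29 ± 0.19, adjusted p = 1.14e-05). It rose at 3 days too in A673 (1.30) and CHLA10 (0.96). SCARB2, the membrane protein that carries glucocerebrosidase to lysosomes, rose in A673 at 20 days (log2 change 1.28 ± 0.16, adjusted p = 3.63e-07). NAGPA, which uncovers the mannose 6-phosphate tag of hydrolases, fell in all 5 comparisons, most in A673 at 20 days (-1.39) and least in TC32 (-0.66). Of 15 other proton pump genes between 1 and 4 rose and 1 to 3 fell in each comparison, 6.67 to 26.7% and 6.67 to 20%, which spans the shares of all genes. ATP6V0A1 rose in TC32 (log2 change 1.01 ± 0.09, adjusted p = 8.05e-10) and in CHLA10 at 3 days (0.91) and 20 days (0.84). TCIRG1, another form of the same subunit, fell in CHLA10 at 20 days (log2 change -1.61 ± 0.35, adjusted p = 0.000806) and at 3 days in CHLA10 (-1.26), A673 (-0.52) and TC32 (-0.63). It rose in A673 at 20 days (log2 change 0.56 ± 0.19, adjusted p = 0.0187).

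Among 44 other autophagy genes 25 rose and 4 fell in A673 and 8 rose and 10 fell in CHLA10 at 20 days. In A673 that was 56.8% and 9.09%, beside 19.7% and 19.9% of all genes. In CHLA10 it was 18.2% and 22.7%, near the 16.5% and 17.2% of all genes. For 3 days the counts were 22 higher and 4 lower in TC32 (50% and 9.09%, all genes 22.3% and 22.8%). A673 had 13 higher and 3 lower (29.5% and 6.82%, all genes 15.3% and 18.4%). CHLA10 had 11 higher and 4 lower (25% and 9.09%, all genes 14.0% and 15.7%). OPTN, a cargo receptor of mitophagy, rose in A673 at 20 days (log2 change 2.00 ± 0.22, adjusted p = 4.41e-08) and fell in CHLA10 at 3 days (log2 change -0.78 ± 0.24, adjusted p = 0.0143). RB1CC1, the scaffold of the ULK1 complex, and ATG2B, a lipid transfer protein, rose in TC32 (log2 change 1.03 ± 0.09, adjusted p = 2.69e-09; log2 change 1.05 ± 0.13, adjusted p = 4.77e-07). ATG16L1 fell in CHLA10 at 20 days (log2 change -0.88 ± 0.11, adjusted p = 3.92e-07) and 3 days (-0.59). ATG14 fell in CHLA10 at 20 days (log2 change -0.79 ± 0.15, adjusted p = 0.000219). FUNDC1, a mitophagy receptor, fell in A673 at 20 days (-0.75) and 3 days (-0.51) and in TC32 (-0.68).

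The 20 genes of mTORC1, the Rag GTPases and folliculin set where TFEB and TFE3 reside. They showed 4 higher and 2 lower in A673 and 4 higher and 1 lower in CHLA10 at 20 days. The shares of all genes higher and lower were 19.7% and 19.9% in A673 and 16.5% and 17.2% in CHLA10. Their 3-day counts were 7 higher and 6 lower in TC32, 5 higher and 3 lower in A673 and 7 higher and 1 lower in CHLA10. Beside these stood 22.3% and 22.8% of all genes in TC32, 15.3% and 18.4% in A673 and 14.0% and 15.7% in CHLA10. RRAGD, the Rag GTPase that is itself a known target of these factors, rose in CHLA10 at 20 days (log2 change 1.17 ± 0.22, adjusted p = 0.00012) and 3 days (log2 change 0.58 ± 0.21, adjusted p = 0.0406). It fell in A673 at 20 days (log2 change -1.15 ± 0.27, adjusted p = 0.00102) and 3 days (log2 change -0.87 ± 0.24, adjusted p = 0.00522). FLCN, folliculin, rose in TC32 (log2 change 0.79 ± 0.12, adjusted p = 5.32e-06), and so did MTOR (log2 change 0.81 ± 0.11, adjusted p = 8.97e-07). RPTOR, the mTORC1 scaffold raptor, fell in A673 at 20 days (-0.55) and 3 days (-0.52) and in CHLA10 at 3 days (-0.38). Transport of the factors into the nucleus and lysosome activity were not measured.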

How the data were processed

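RNA of 30 libraries in 10 groups of 3 was measured by poly(A) RNA-seq with read pairs, per the labels' protocols. The deposited values are raw counts of reads per Ensembl gene, whole numbers made by the authors and not normalized. The submitters' processing notes name the GRCh38 build, the aligner STAR, DESeq2, Trim Galore and FastQC. Which program counted the reads, and with what strand setting and gene models, is not given in the sources used here. Reads of near copies, overlapping genes and antisense genes may therefore be split or shared. Of 33538 gene IDs, 33113 had a symbol and 33456 were found in GENCODE 29, the source of coordinates and exon lengths. Columns were matched to samples by title, and all labels give batch 1. No pair of libraries of the same group agreed within sampling noise (lowest chi-square per gene 2.194), and pairs from different groups were not compared.

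Counts passed edgeR's filterByExpr (16713 genes), were scaled by TMM and were tested with edgeR 4.0.16 (robust quasi-likelihood, R 4.3.3) over all 30 libraries with 1 coefficient per group. The 5 treatment contrasts, 6 differences between them and 2 time contrasts in DMSO were adjusted by Benjamini-Hochberg over all genes, with 0.05 as the threshold. The fit was tested on simulated data. Exons of a gene were merged for levels per kilobase. Alternatives were RLE scaling, library size only, no low-count filter, DESeq2 1.42.0, limma-voom 3.58.1, a fit to the lines of the contrast only, the replicate number as a block, leaving out the 4 most distant libraries and leaving out each library in turn.

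Values are given for the members called in all 3 lines at 3 days, the 4 highest and 4 lowest called members of each treatment contrast and the 3 largest called differences, and from the wider lists up to 2 called genes per direction, list and contrast with a mean log2 CPM of at least 2; other members were chosen for mention after their values were seen. The members and lists were chosen with earlier results of these data known. Same-numbered libraries deviated together in CHLA10 at 20 days (correlations of 0.199, 0.15 and 0.361 for replicates 1, 2 and 3) and in no other line and time by the rule that every pair exceed 0.1, so the blocked value is given there. Intervals cover the spread between libraries, and depth (16083677 to 48949739 counts per library) limits the precision of genes under 1 CPM.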

Additional observations from a re-analysis of the deposited data

Results flagged for a closer look

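Differences between responses are given here because a test of the difference itself passed the threshold (edgeR's quasi-likelihood test, Benjamini-Hochberg adjustment over all genes), and each is the first named response minus the second on the log2 scale.

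CTSF, a cysteine cathepsin, appeared in 4 of the 6 differences. Its response was higher in A673 than in CHLA10 at 20 days by 2.35, higher in A673 at 20 than at 3 days by 1.33, and lower in TC32 than in CHLA10 at 3 days (-1.01), and in CHLA10 it was lower at 20 than at 3 days (-1.25). Its DMSO level moved between the times too, upward in CHLA10 (1.24) and downward in A673 (-0.66), and the part of these controls in the differences was not tested.

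GAA, acid glucosidase, had a lower log2 change in A673 than in CHLA10 at 3 days (-1.12) and in TC32 than in CHLA10 (-1.06). LIPA, acid lipase, had a higher one at 20 than at 3 days in A673 (1.48) and a lower one in A673 than in CHLA10 at 3 days (-0.79). The log2 change of WIPI1 was higher at 20 than at 3 days in A673 (1.73), and that of GUSB in CHLA10 (0.51), and each of these calls was lost in 9 of the 12 fits that left out 1 library. ATG7 was lower in A673 than in CHLA10 at 3 days (-0.97), and CTSD was lower in TC32 than in CHLA10 at 3 days (-0.87). Between TC32 and A673 at 3 days, TFEB (1.21) and CTSK (0.95) were higher in TC32, and CTSL was lower (-1.11). At 20 days MAP1LC3B (1.2) and NPC2 (1.14) were higher in A673 than in CHLA10.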

How the results depend on the processing

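Of 115 calls (the members' calls in the 5 treatment comparisons and the named differences), none changed sign under any alternative run, and 114 were still called with RLE scaling, 111 with library size only, 107 with no low-count filter, 114 with DESeq2, 112 with limma-voom, 108 with only the lines of the contrast and 115 without the 4 most distant libraries. The 4 libraries were picked by their distance in these same data, which favours keeping calls, so that last count is no support for them. Leaving out each library in turn, 87 were called in every fit and 28 were lost in at least 1. With the replicate block 114 were still called: LIPA in CHLA10 at 20 days was lost (log2 change 0.45, adjusted p = 0.0527), and members whose response differs between 20 and 3 days in CHLA10 became 4 in place of 2, with both of the 2 among them. The replicate block changed no other call. Same-numbered libraries of the other lines and times did not meet the correlation rule, which does not show that they share nothing but a number.

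Counts that moved by more than 1.5 times were these, and the cause was not tested. Lower members in CHLA10 at 3 days (5) became 3 with no low-count filter, and 2 to 5 leaving out 1 library. In A673 at 3 days (5) they became 8 with DESeq2, 9 without the 4 distant libraries and 3 to 8 leaving out 1 library. In CHLA10 at 20 days (5) they became 8 with only that line. Members differing between 20 and 3 days in CHLA10 (2) became 1 with no filter, 4 with DESeq2, 1 with only that line, 8 without the 4 libraries and 1 to 5 leaving out 1. In A673 (10) they became 4 with only that line, 24 without the 4 libraries and 3 to 16 leaving out 1. The difference of A673 and CHLA10 at 3 days (4) gave 15 without the 4 libraries and 2 to 6 leaving out 1, and at 20 days (9) 21 and 8 to 15. TC32 against CHLA10 (5) gave 12 without the 4 libraries, and TC32 against A673 (16) 9 to 16 leaving out 1. Calls in DMSO between the times in CHLA10 (6) became 16 without the 4 libraries, and in A673 (2) 1 with no filter, 4 with DESeq2, 1 with limma-voom, 0 with only that line (edgeR; 7 members had an unadjusted p under 0.05), 19 without the 4 libraries and 0 to 13 leaving out 1.

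Signs that turned belonged to values not called. TFE3 in TC32 was -0.0062 with RLE and with DESeq2 and ran from -0.039 to 0.0972 leaving out 1 library (lowest without DMSO replicate 3), and in A673 at 20 days it was -0.023 with library size only, a scaling that moved the median of all genes there to -0.115. Leaving out 1 library, MITF in CHLA10 at 3 days ran from -0.1054 to 0.2603, below 0 without BETi replicate 2 (-0.1054) or DMSO replicate 3 (-0.0458). In TC32 it ran from -0.3123 to 0.0277, above 0 without BETi replicate 1 (0.0277) or DMSO replicate 3 (0.0024). TFE3 was called in A673 at 3 days with library size only (-0.31, adjusted p = 0.0484) and without the 4 libraries (-0.40, adjusted p = 0.00157), and in CHLA10 at 20 days with only that line (-0.25, adjusted p = 0.025). Leaving out DMSO replicate 3 alone, TFE3 was called in A673 at 3 days too (-0.43, adjusted p = 0.00491). MITF was called there without BETi replicate 2 (0.91, adjusted p = 0.0356). WIPI1 and MITF in TC32 and CTSZ in all lines are limited by depth.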

Other observations

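Stress genes that are often read beside autophagy genes were counted in the same way. At 20 days 19.7% of all genes rose and 19.9% fell in A673, and 16.5% and 17.2% in CHLA10. At 3 days the shares were 22.3% and 22.8% in TC32, 15.3% and 18.4% in A673 and 14.0% and 15.7% in CHLA10. Lists of 12 and 8 genes are too short to set small counts apart from these shares. Of 12 target genes of ATF4, the factor of the amino acid and unfolded protein stress response, 1 rose and 4 fell in A673 and 4 rose and 1 fell in CHLA10 at 20 days. At 3 days 0 rose and 5 fell in TC32, 0 rose and 11 fell in A673 and 1 rose and 3 fell in CHLA10. Their summed level was 560.0 to 610.3 CPM with BETi and 438 to 484 CPM with DMSO in CHLA10 at 20 days, and 777 to 795 CPM with BETi and 1235 to 1336 CPM with DMSO in A673 at 20 days. The BETi libraries thus lay above the DMSO libraries in CHLA10 and below them in A673. In the tests of the difference itself, 5 of the 12 had a lower log2 change in A673 than in CHLA10 at 20 days and 8 at 3 days. In TC32 6 had a higher one than in A673 and 1 a lower one than in CHLA10. In the same order DESeq2 called 5, 8, 7 and 1 and limma-voom 2, 2, 2 and 0, so these counts depend on the method. Of all genes, 21.9% differed in either direction between A673 and CHLA10 at 20 days and 10.5% at 3 days. The share was 24.2% between TC32 and A673 and 13.8% between TC32 and CHLA10. Of 8 target genes of NRF2, the factor of the oxidative stress response that SQSTM1 protein can release from its inhibitor, 1 rose and 1 fell in A673 and 1 rose and 1 fell in CHLA10 at 20 days. After 3 days 3 rose and 2 fell in TC32, 1 rose and 4 fell in A673 and 1 rose and 5 fell in CHLA10. Of these 8, 2 had a higher log2 change in TC32 than in A673 and 1 in TC32 than in CHLA10. Between A673 and CHLA10 edgeR called 0 at 20 days, with 2 at an unadjusted p under 0.05, 0 by DESeq2 and 1 by limma-voom. At 3 days it called 0, with 1 at an unadjusted p under 0.05 and 0 by DESeq2 and limma-voom.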
